A study of Mus musculus with 36 samples.

Results

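The genes that decide whether a cell leaves G1 were followed in 10 mouse astrocyte lines: the D-type cyclins Ccnd1, Ccnd2 and Ccnd3, the kinases Cdk4 and Cdk6, the inhibitors Cdkn2a, Cdkn2b, Cdkn2c and Cdkn1b, and the retinoblastoma gene Rb1. These 10 of the 46078 genes in the table were chosen by symbol and not by a cut on their values, with earlier results of these data known. Every line carries the genotype Nf1-/- DNp53: it lacks Nf1, which encodes the Ras inhibitor neurofibromin, and carries a dominant-negative p53. The cells are described as transformed astrocytes and were grown in DMEM/F12 with 10% fetal bovine serum. The lines come from 5 lots (6, 7, 8, 11 and 12), with 1 line of each sex per lot, and the series' design text says that the repeats came from separate litters. Lots 6 and 12 have 3 libraries per line and lots 7, 8 and 11 have 4, 36 in all. All groups share both changes, and lines with normal Nf1 and p53 were not analysed here. The ages of the animals, the way the alleles were introduced and whether a line is clonal are not given in the sources used here.

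In a resting cell, Rb1 and its relatives hold E2F transcription factors in check. Mitogens acting through Ras raise the D-type cyclins, which pair with Cdk4 or Cdk6 and begin the phosphorylation of the retinoblastoma protein, so that E2F targets for DNA replication are transcribed. The Ink4 proteins, encoded by Cdkn2a, Cdkn2b and Cdkn2c, bind Cdk4 and Cdk6 and keep cyclin D off them, and p27, encoded by Cdkn1b, inhibits the later cyclin E kinase. Cdkn2a also encodes Arf, read from an upstream exon of its own, which stabilises p53. In gliomas this axis is often altered through loss of CDKN2A and CDKN2B, gain of CDK4 or CDK6, or loss of RB1.

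Promoter sequence is shown for Cdk4, which was called in 3 lots in a single direction, and for the adjacent inhibitor genes Cdkn2a and Cdkn2b, which were both low in libraries of the same line. Each is the 250 bases before a RefSeq start site (GRCm38.p6), 5′ to 3′ on the strand of the gene, with matches in capitals to CACGTG, the E-box bound by Myc and related factors, or to TTTNNCGC, an E2F-like motif, searched on both strands without overlap between them.
Cdk4, chr10:127063285-127063534, plus strand: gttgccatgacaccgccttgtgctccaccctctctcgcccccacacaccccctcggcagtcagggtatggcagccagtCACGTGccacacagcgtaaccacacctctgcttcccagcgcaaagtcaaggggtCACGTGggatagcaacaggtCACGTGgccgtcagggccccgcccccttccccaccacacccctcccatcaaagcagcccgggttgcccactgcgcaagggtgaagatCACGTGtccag
Cdkn2a, the start of the p16 transcript, chr4:89282193-89282442, minus strand: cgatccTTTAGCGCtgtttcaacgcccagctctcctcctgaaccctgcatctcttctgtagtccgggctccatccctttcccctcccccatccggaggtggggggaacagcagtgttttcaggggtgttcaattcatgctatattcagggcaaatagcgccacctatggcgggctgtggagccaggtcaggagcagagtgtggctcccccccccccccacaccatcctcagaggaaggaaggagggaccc
Cdkn2b, chr4:89311033-89311282, minus strand: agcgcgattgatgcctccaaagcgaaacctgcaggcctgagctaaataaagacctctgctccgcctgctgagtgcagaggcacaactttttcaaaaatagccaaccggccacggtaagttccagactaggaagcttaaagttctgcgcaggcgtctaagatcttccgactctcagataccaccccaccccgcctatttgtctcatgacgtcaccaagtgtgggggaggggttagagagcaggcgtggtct
Cdk4 held 4 E-boxes in this window. Of 32851 RefSeq promoters of the same length, 6.02% held at least 1 CACGTG and 7 (0.0213%) held 4 or more. The p16 start of Cdkn2a held 1 E2F-like match, as did 4.28% of all promoters, and Cdkn2b held neither motif. A match is a description of the letters and not a measured binding site. Of the 10 members, 7 had an entry in the RefSeq promoter table.

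Expression was measured by BRB-seq, which counts the 3' ends of polyadenylated RNA in pooled, barcoded libraries. Library totals ran from 4358098 to 7562901 counts, and 3 counts in a library, the floor used here, came to 0.397 to 0.688 CPM, the count scaled to a common library size. All CPM below use TMM-scaled library sizes. Libraries of 2 sets stood apart. Replicate 4 of lots 7, 8 and 11 had the lowest share of mitochondrial mRNA in 6 of 6 lines, 0.251 to 0.349% against 0.534 to 0.770% in replicates 1 to 3, and replicate 3 of lot 12 had 0.461 to 0.520% against 0.608 to 0.775% in its line mates. Nf1 was near the floor, with line means of 0.666 to 2.6 CPM, and Trp53 reached 179 to 391 CPM. A 3' count shows neither an upstream deletion nor a transgene that shares the 3' end. Of 10 astrocyte markers 5 exceeded 1 CPM on average, led by Gja1 at 143 CPM, while Gfap, Aqp4, Aldh1l1, Slc1a2 and S100b did not. Of 6 neural progenitor markers 5 exceeded 1 CPM, with sums of 3313 CPM (lot 7 female) to 4739 CPM (lot 8 male), led by Vim. Of 6 neuron markers 3 did, and of 8 oligodendrocyte lineage markers 1 did. Of 7 fibroblast and mural markers 4 exceeded 1 CPM, while Dcn, Lum and Rgs5 did not. The sum of this list ran from 1393 CPM (lot 7 male) to 15858 CPM (lot 6 female), led by Acta2, the smooth muscle actin. Of 8 microglia and macrophage markers 2 exceeded 1 CPM, and of 5 endothelial markers none did. The part of these markers in the results below was not tested. In bulk cultures, fewer cells of a kind and less RNA per cell cannot be told apart.

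Across the 10 lines, 7 members differed by edgeR's quasi-likelihood F-test with Benjamini-Hochberg adjustment over all genes, where 51.8% of all 12173 genes tested did. The 7 were the 3 D-type cyclins, both kinases, Cdkn2b and Cdkn2c. Cdkn2a (adjusted p = 0.163), Cdkn1b (adjusted p = 0.106) and Rb1 (adjusted p = 0.413) did not pass. Cdkn2a did pass without replicate 3 of the lot 12 male line (adjusted p = 0.00225), without replicate 3 of both lot 12 lines (0.00250) and without the filter on low counts (0.00734). Cdkn1b passed on library totals (0.0490), without the filter (0.0440) and without replicate 3 of the lot 11 male line (0.0393). Within a lot, the female and the male line were then compared in the same fit. In lot 6, 4 members were called, 2 in each direction, where 27.6% of all genes were (13.5% with a higher and 14% with a lower female value). Lot 7 gave 4 members, 2 in each direction (10.8% of all genes, 5.41% higher and 5.42% lower). Lot 8 gave 2, 1 in each direction (11.4% of all genes, 6.41% higher and 4.99% lower). Lot 11 gave 3, 1 higher and 2 lower (4.33% of all genes, 1.52% higher and 2.81% lower), and lot 12 gave 1, lower (3.8% of all genes, 1.74% higher and 2.06% lower). With 1 line per sex and lot, a difference of sex and a difference between single lines cannot be told apart, and the labels do not say that libraries of a line are separate cultures, so these p-values measure the spread between libraries only.

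**Figure D1:**
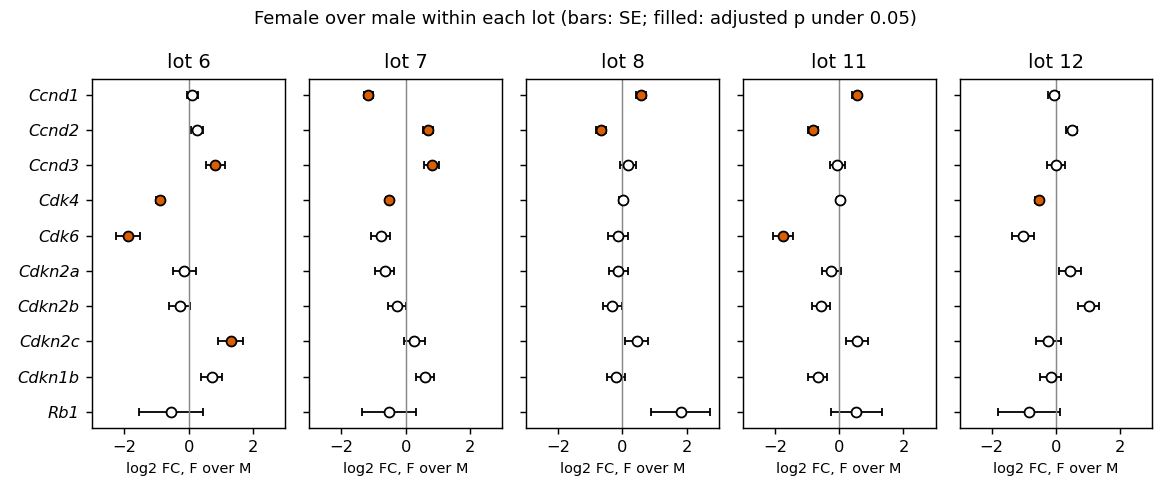
Log2 fold change of female over male for each of the 10 genes in each lot, with bars for the standard error of the edgeR fit and filled points for an adjusted p under 0.05. Ccnd1 and Ccnd2 were called on opposite sides of 0 in lots 7, 8 and 11, and every called value of Cdk4 and Cdk6 lies below 0.

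The D-type cyclins are the mitogen-fed part of the switch, and Ccnd1 and Ccnd2 made up nearly all of their counts. Both differed between the 2 lines of lots 7, 8 and 11, and in each of these lots the line with more Ccnd1 had less Ccnd2. In lot 7, Ccnd1 was at 202, 165, 163 and 125 CPM in the female libraries and at 407, 385, 345 and 323 CPM in the male libraries. The ranges did not overlap, and the mean was 164 CPM in the female against 365 CPM in the male line, a log2 fold change of -1.16 ± 0.15 (SE, adjusted p = 4.00e-07). Ccnd2 in the same libraries was at 259.7, 209, 287 and 246 CPM in the female line and at 170.1, 154, 143 and 152 CPM in the male line. Here the female line was the higher one, again without overlap, by 0.69 ± 0.16 (SE, adjusted p = 0.00224).

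Lot 8 showed the opposite order. Ccnd1 was at 445, 465, 469 and 364 CPM in the female line, the highest mean of the 10 lines, and at 289.7, 264, 357 and 254 CPM in the male line. The difference was 0.58 ± 0.15 (SE, adjusted p = 0.00583) with separate ranges. Ccnd2 in the female line was at 104, 97.4, 117 and 150.2 CPM, the lowest mean of the 10 lines, and in the male line at 185, 177, 181 and 198 CPM. All female libraries lay below all male libraries, with a log2 fold change of -0.66 ± 0.16 (SE, adjusted p = 0.00433).

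In lot 11, too, the female line had more Ccnd1 and less Ccnd2. Its Ccnd1 values were 312, 281, 306 and 202 CPM, against 188, 184, 203 and 179 CPM in the male line. The lowest female value fell within the male range, with a log2 fold change of 0.55 ± 0.15 (SE, adjusted p = 0.0208). The call was lost when any of 5 single libraries was left out, replicates 1 and 3 of the female line and 1, 2 and 4 of the male line, with an adjusted p of 0.0509 to 0.0875. Ccnd2 was at 196, 149, 167 and 187 CPM in the female and 294, 286, 291 and 356 CPM in the male line, apart in every library, with a log2 fold change of -0.81 ± 0.16 (SE, adjusted p = 0.000732). This call held in 8 of 8 fits that each left out 1 library of the lot.

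Lots 6 and 12 showed no called difference in either gene. In lot 6, Ccnd1 was at 305, 349.9 and 327 CPM in the female and 267, 247 and 396 CPM in the male line, without separation. Ccnd2 was at 322, 306 and 334 CPM in the female and 268, 247 and 288 CPM in the male line, with the female libraries above the male ones. The log2 fold change of Ccnd1 was 0.11 ± 0.17 (SE, 95% interval -0.22 to 0.44) and that of Ccnd2 0.26 ± 0.18 (SE, 95% interval -0.091 to 0.61). In lot 12, Ccnd1 was at 297, 303 and 217 CPM in the female and 321, 256 and 282 CPM in the male line. Ccnd2 in lot 12 was at 345, 422 and 564 CPM in the female line, the highest mean of the 10 lines, and at 194, 312 and 442 CPM in the male line. Replicate 3, the last value for each line, had 1.47 and 1.75 times the mean Ccnd2 of the other 2 libraries of its line. Same-numbered libraries of the 2 lot 12 lines deviated together, with residual correlations of 0.392 to 0.529. With the replicate number as a block, Ccnd2 passed in lot 12, at a log2 fold change of 0.53 (adjusted p = 0.00246, against 0.139 without the block). It also passed without the filter on low counts (adjusted p = 0.0265) and without replicate 3 of the male line (0.00421).

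**Figure D2:**
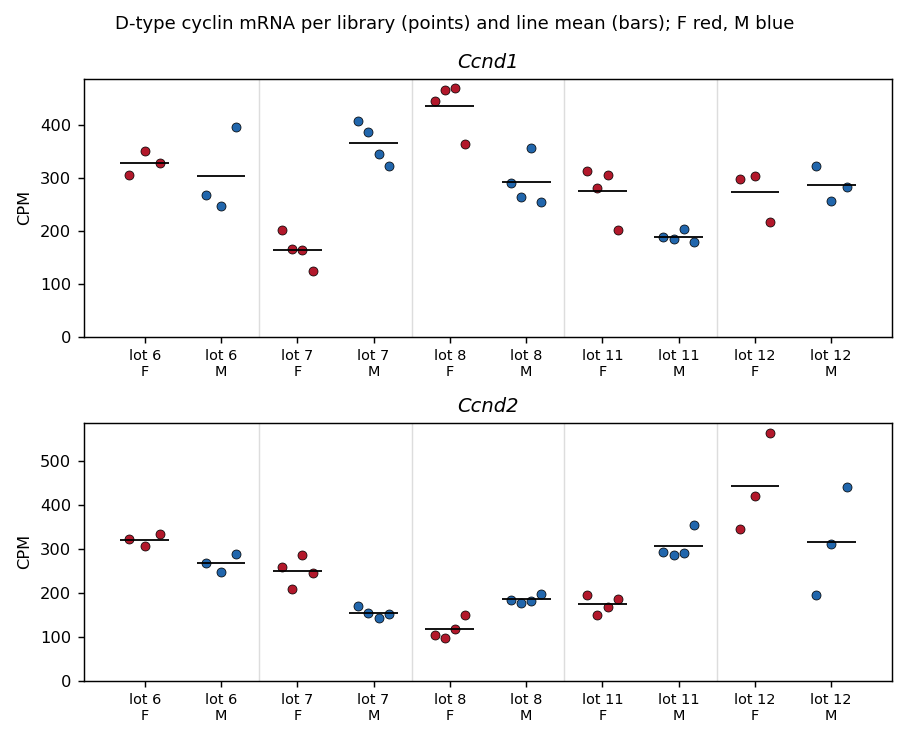
Ccnd1 and Ccnd2 in CPM for each library (points, female red, male blue) with the line mean (bar), by lot. Ccnd1 is lowest in the lot 7 female and lot 11 male lines and highest in the lot 8 female line, and Ccnd2 is highest in the lot 12 female line and lowest in the lot 8 female line.

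Ranked by mean, Ccnd1 ran over 2.66-fold, from 164 ± 31.5 CPM (SD, n = 4) for the lot 7 female to 436 ± 49 CPM (SD, n = 4) for the lot 8 female. Of the 9 pairs of neighbours in this order only 1 had separate ranges, the lot 12 female line and the lot 11 male line below it. Ccnd2 ran over 3.79-fold, from 117 ± 23.5 CPM (SD, n = 4) to 444 ± 111 CPM (SD, n = 3), and 2 of 9 neighbouring pairs were apart. The female-male difference itself differed between the lots for Ccnd1 (adjusted p = 6.14e-08) and Ccnd2 (adjusted p = 8.86e-07), in a test that 29.9% of all genes passed. In each of the 6 lines of lots 7, 8 and 11, replicate 4 had the lowest Ccnd1, at 0.672 to 0.934 times the mean of its line mates. The part of the mitochondrial share of these libraries in that was not tested.

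The balance of the 2 genes was expressed as the share of Ccnd1 in the counts of all 3 D-type cyclins. For the female and then the male line, it was 49.4 and 52.7% in lot 6, 37.7 and 68.9% in lot 7, 76.7 and 59.6% in lot 8, 59.1 and 36.7% in lot 11, and 37.7 and 44.8% in lot 12. The female line had the higher share in 2 of 5 lots. The mean female-male difference was -0.43 ± 21.4 percentage points (SD, n = 5 lots; exact 2-sided sign-flip test, p = 1, where 0.0625 is the smallest possible). Over the 10 line means, log2 CPM of Ccnd1 and Ccnd2 had a Pearson r of -0.48 (permutation p = 0.166, adjusted over 4 pairs of members p = 0.221) and a Spearman rho of -0.38 (permutation p = 0.278, adjusted p = 0.415). Leaving out the lot 11 male and lot 7 female lines, whose Ccnd1 lay farthest from the median, gave an r of -0.66 (permutation p = 0.0738). With each lot centred on the mean of its 2 lines, r was -0.86 (exact test swapping the sexes within lots, p = 0.188, adjusted p = 0.333, where 0.0625 is the smallest possible p).

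**Figure D3:**
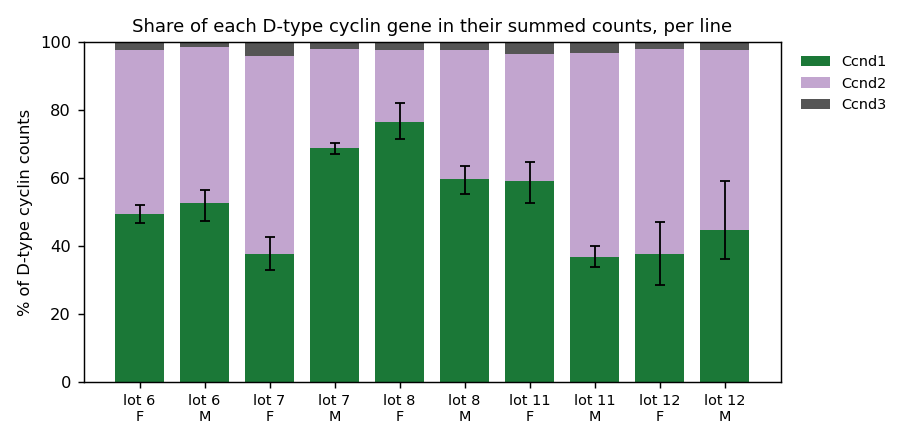
Share of each D-type cyclin gene in their summed counts per line, in percent, with the SD of the Ccnd1 share over libraries (n = 3 in lots 6 and 12, n = 4 in the others). The Ccnd1 share runs from 36.7% in the lot 11 male line to 76.7% in the lot 8 female line, and Ccnd3 is the thin top layer in all lines.

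Ccnd3, the third D-type cyclin, was much less abundant by count, with line means from 8.06 to 17 CPM. It was at 14.2, 10.9 and 17.8 CPM in the lot 6 female line and at 6.66, 7.96 and 9.56 CPM in the male line, separate ranges with a log2 fold change of 0.83 ± 0.29 (SE, adjusted p = 0.0273). In lot 7 it was at 20.7, 17.7, 17.9 and 11.8 CPM in the female and 6.62, 8.09, 14.8 and 9.41 CPM in the male line, which overlap, with 0.81 ± 0.24 (SE, adjusted p = 0.0258). Both calls were lost without single libraries: in lot 6 without replicate 1 or 3 of the female or 1 or 2 of the male line (adjusted p 0.0562 to 0.153), and in lot 7 without replicate 1, 2 or 3 of the female or 1, 2 or 4 of the male line (adjusted p 0.0562 to 0.115). They were also lost without the filter on low counts, at adjusted p = 0.0822 and 0.0666. The lot 7 call was lost in the libraries of the lot alone as well (0.0665). Its female-male difference was called between lots without replicate 3 of the lot 7 male line (adjusted p = 0.0262) but not with all libraries. Ccnd3 shares exonic positions with Bysl on the opposite strand, which had 16998 counts in all libraries against 2916 for Ccnd3. Whether strand was used in counting is not given in the sources used here, so reads of the 2 genes cannot be told apart. Bysl itself was lower in the lot 6 female line (log2 fold change -0.49, adjusted p = 0.0251) and was not called in lot 7.

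Cdk4 and Cdk6 are the 2 catalytic partners of the D-type cyclins, and wherever either was called it was lower in the female line. Cdk4 was called in lots 6, 7 and 12. In lot 6 it was at 206, 203 and 216 CPM in the female and 395, 398 and 367 CPM in the male line, the lowest and the highest mean of all 10 lines. This is a 1.85-fold lower level in the female line, at a log2 fold change of -0.89 ± 0.12 (SE, adjusted p = 2.07e-07). In lot 7, Cdk4 was at 220.3, 209, 213 and 195 CPM in the female and 335, 279, 308 and 277 CPM in the male line, again without overlap (-0.52 ± 0.10 (SE, adjusted p = 0.000454)). In lot 12 it was at 242, 256 and 185 CPM in the female and 361, 372 and 259 CPM in the male line. These ranges were also apart, with -0.54 ± 0.12 (SE, adjusted p = 0.00424), although replicate 3 of both lines stood at 0.706 and 0.743 times its line mates. Without replicate 3 of the female line the adjusted p in lot 12 was 0.0645, without replicate 2 of the male line 0.0547, and in a fit of the 6 libraries of lot 12 alone 0.303. With the replicate block it was 0.000137.

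Lots 8 and 11 had nearly level Cdk4. The female libraries were at 267, 256, 263 and 268 CPM and the male libraries at 252, 268, 280.4 and 248 CPM in lot 8. In lot 11 the female libraries were at 299, 297, 303 and 277 CPM and the male libraries at 303, 260.2, 329 and 262 CPM, so that the ranges overlapped in both lots. The log2 fold changes were 0.0076 ± 0.10 (SE, 95% interval -0.19 to 0.21) and 0.026 ± 0.10 (SE, 95% interval -0.17 to 0.22), intervals that do not reach the values of lots 6, 7 and 12. The female-male difference of Cdk4 differed between lots with an adjusted p of 1.93e-05.

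More genes of chromosome 10, which holds Cdk4, were called lower than higher in the female line in lots 6, 7 and 12, and in lot 11, where Cdk4 was level, as well. Cdk4 lies at 127063534 to 127067920 (GRCm38), and its end overlaps Tspan31 on the opposite strand, which had 948 counts in all against 59698 for Cdk4. Of the chromosome's 568 tested genes, 204 were called lower and 25 higher in the lot 6 female line, with a median log2 fold change of -0.51 against 0.063 for all genes. In lot 7, 63 were lower and 12 higher (median -0.16), and in lot 12, 50 were lower and 7 higher (median -0.31). In lot 11, 26 were lower and 4 higher (median -0.13), and in lot 8, 35 were lower and 33 higher (median -0.086). Of the 4 nearest tested genes, 2 were called lower with Cdk4 in lot 6, 1 in lot 7 and 0 in lot 12. Tsfm, a mitochondrial translation factor gene just upstream, fell by 1.14 on the log2 scale in lot 6 (adjusted p = 7.64e-07) and by 0.50 in lot 7 (adjusted p = 0.0145), and had a value of -0.44 in lot 12 (adjusted p = 0.138). Mettl1, which encodes a tRNA methyltransferase and lies between them, had values of -1.12 (adjusted p = 0.00306), -0.54 (0.177) and -0.85 (0.0996) in lots 6, 7 and 12. On the far side, Tspan31 had -0.21, 0.034 and 0.39 in these lots and Os9 -0.56, -0.20 and -0.11, none called, and Os9 was called higher in the lot 8 female line (0.77, adjusted p = 0.0103). Of all 12173 genes tested, 1644 were called higher and 1710 lower in the lot 6 female line. Lot 7 had 659 and 660, lot 8 had 780 and 608, lot 11 had 185 and 342, and lot 12 had 212 and 251. Some other chromosomes that hold members were uneven too. On chromosome 7, with Ccnd1, 33 of 855 tested genes were called higher and 75 lower in the lot 7 female line. Lot 8 had 108 and 12, and lot 11 had 27 and 13. Lots 6 and 12, where Ccnd1 was not called, had 120 and 81, and 14 and 20. Chromosome 17, with Ccnd3 and 590 tested genes, had 98 and 54 in lot 6, and 73 and 17 in lot 7. Lots 8, 11 and 12, where Ccnd3 was not called, had 27 and 39, 9 and 14, and 8 and 2. Chromosome 14, with Rb1 and 407 tested genes, had 22 and 147 in lot 6 (median -0.63). It had 32 and 10 in lot 7, 42 and 12 in lot 8, 6 and 9 in lot 11, and 7 and 3 in lot 12. Chromosome 4, with Cdkn2a, Cdkn2b and Cdkn2c, has 756 tested genes. Its counts were 135 and 68 in lot 6, 38 and 33 in lot 7, 72 and 12 in lot 8, 9 and 20 in lot 11, and 8 and 6 in lot 12. The part of whole chromosomes in the values of the members was not tested.

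Cdk6, the kinase partner with the lower counts, lies on chromosome 5 (3341485 to 3531008, GRCm38) and varied more between line means than any other member, 5.83-fold. In lot 6 it was at 8.59, 6.62 and 14.4 CPM in the female and 47.4, 23.7 and 38.5 CPM in the male line, 3.69-fold lower in the female (-1.89 ± 0.36 (SE, adjusted p = 0.000116)). In lot 11 it was at 11.5, 15.2, 17 and 24.6 CPM in the female and 107, 42.4, 42 and 38.3 CPM in the male line, 3.36-fold lower (-1.75 ± 0.31 (SE, adjusted p = 0.000159)). The first male library of lot 11 stood far above its line mates, but the ranges were apart with and without it. Leaving out each library of lots 6 and 11 in turn kept both calls, with log2 fold changes of -2.26 to -1.66 in lot 6 and -1.97 to -1.26 in lot 11.

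The other 3 lots did not pass. In lot 7, Cdk6 was at 19.9, 21, 29 and 13.1 CPM in the female and 34.3, 31.4, 31.6 and 45 CPM in the male line, separate ranges with -0.77 ± 0.30 (SE, adjusted p = 0.0949). In lot 12 it was at 21.7, 28.5 and 34.1 CPM in the female and 50.8, 52.1 and 69.9 CPM in the male line, also separate, with -1.04 ± 0.34 (SE, adjusted p = 0.0836). Both were called without the filter on low counts (adjusted p = 0.00404 in lot 7 and 0.000599 in lot 12), and lot 7 also in its libraries alone (0.0301). In lot 8 the values mixed, 14.5, 26.4, 32.9 and 30.6 CPM in the female against 40.9, 25.6, 29.6 and 20.1 CPM in the male line, with a log2 fold change of -0.14 ± 0.30 (SE, 95% interval -0.74 to 0.45). The mean of the female line was thus the lower one in 5 of 5 lots. The size of the difference varied between lots (adjusted p = 0.0113).

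**Figure D4:**
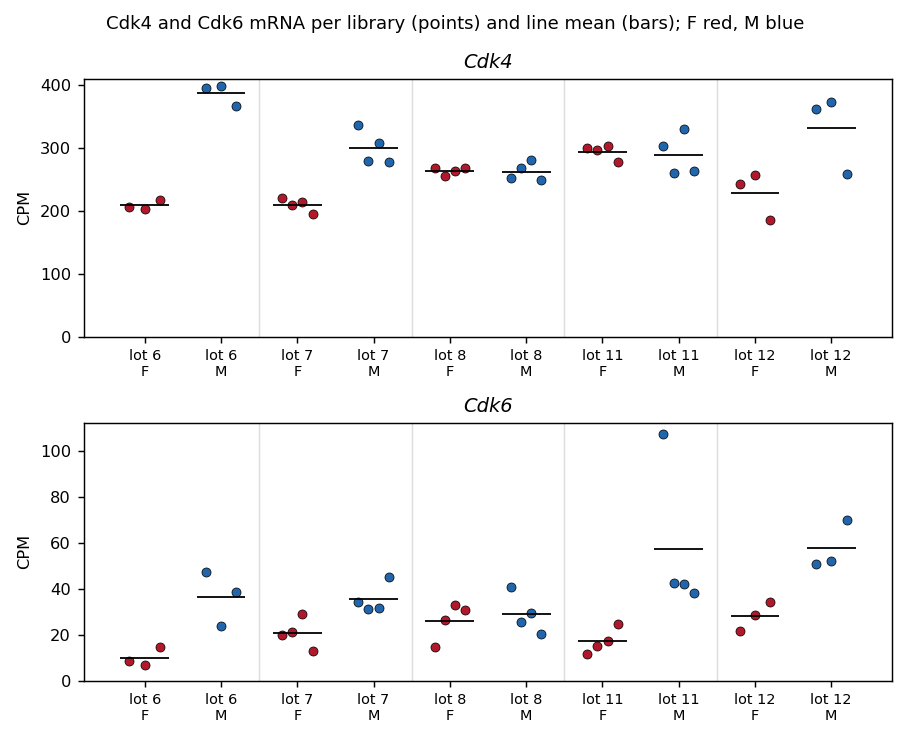
Cdk4 and Cdk6 in CPM for each library (points, female red, male blue) with the line mean (bar), by lot. Cdk4 is separated by sex in lots 6, 7 and 12 and mixed in lots 8 and 11, and in each lot the Cdk6 line mean of the male exceeds that of the female.

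Across litters, with the 10 lines as units and the lot as a term (n = 5 per sex), the mean of Cdk6 was 20.4 ± 7.31 CPM over the female lines and 43.2 ± 13.4 CPM over the male lines (SD). Its log2 fold change was -1.12 ± 0.27 (SE, unadjusted p = 0.00330, adjusted p = 0.695). By edgeR, 0 of 12010 genes passed this comparison (0%), and 841 had an unadjusted p under 0.05. Other methods did call Cdk6: DESeq2 gave an adjusted p of 0.00618 among 60 genes called, and limma voom, fitted to libraries with a random term for the line, 0.00318 among 491 called. The mean of Cdk4 was 241 ± 37.1 CPM over the female and 314 ± 47.6 CPM over the male lines (SD, n = 5), lower in the female line in 3 of 5 lots, with -0.37 ± 0.15 (SE, adjusted p = 0.695; limma voom 0.0114). No other member had an adjusted p under 0.05 in this comparison by any of the 3 methods. Cdkn2c had 0.48 ± 0.24 and Ccnd3 0.35 ± 0.19 (SE), and the other 6 members lay between -0.16 and 0.091.

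The levels of the 2 kinases were compared over the lines. Over the 10 line means of log2 CPM, Pearson r was 0.64 (permutation p = 0.0444, adjusted over 4 pairs p = 0.178) and Spearman rho 0.70 (permutation p = 0.0304, adjusted p = 0.122). Leaving out both lot 6 lines, whose Cdk4 lay farthest from the median, gave an r of 0.55 (permutation p = 0.155), so that the relation rests in part on them. Centred on the lot, r was 0.77 (exact test swapping the sexes within lots, p = 0.250, adjusted p = 0.333, where 0.0625 is the smallest possible p). Among 6360 genes whose log2 CPM averaged 3 or more, those with a pattern much like that of Cdk6 over the 10 lines included Sf1 (r = 0.91) and Trim27 (r = 0.89), given as a description over lines that share litters.

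Cdkn2a and Cdkn2b, whose products p16, Arf and p15 restrain Cdk4 and Cdk6 or stabilise p53, were transcribed in all 36 libraries. They lie next to each other on chromosome 4 (Cdkn2a 89274471 to 89294653, Cdkn2b 89306299 to 89311039, GRCm38). The lowest counts in a library were 42 for Cdkn2a and 57 for Cdkn2b. The p16 and Arf transcripts of Cdkn2a share their 3' end, so a 3' count cannot divide them. Cdkn2a line means ran from 15.7 ± 4.79 CPM (SD, n = 3) for the lot 6 female to 26.9 ± 13.2 CPM (SD, n = 4) for the lot 7 male, a 1.72-fold span in which no neighbouring lines were apart. Within lots it was called in none, with log2 fold changes of -0.14 ± 0.35, -0.65 ± 0.30, -0.13 ± 0.30, -0.25 ± 0.30 and 0.43 ± 0.35 (SE) in lots 6, 7, 8, 11 and 12.

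Cdkn2b ran from 21.1 ± 4.51 CPM (SD, n = 4) for the lot 7 female to 52.7 ± 24.8 CPM (SD, n = 3) for the lot 12 female, a 2.50-fold span. In lots 6, 7, 8 and 11 the female line had the lower mean, with log2 fold changes of -0.28 ± 0.33, -0.27 ± 0.29, -0.31 ± 0.29 and -0.57 ± 0.28 (SE), none called. In lot 12 the female line had the higher mean, at 1.02 ± 0.33 (SE, adjusted p = 0.0754), and was called by DESeq2 (adjusted p = 0.0396), without the filter on low counts (0.000718) and without replicate 2 of the female (0.0276) or replicate 3 of the male line (0.000360). The difference between lots passed (adjusted p = 0.037), but not on library totals (0.0651) nor without replicate 4 of lots 7, 8 and 11 (0.0782). It was also lost without replicate 1 or 2 of the lot 11 female, replicate 4 of the lot 11 male, replicate 3 of the lot 12 female or replicate 1 or 2 of the lot 12 male line, with a range of 0.000209 to 0.252 over the 36 fits that left out 1 library.

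The lot 12 male line held the lowest library of each gene of this locus. Its Cdkn2a libraries were at 9.74, 7.84 and 30.2 CPM, with 42 counts in the lowest, and its Cdkn2b libraries at 13.2, 16.4 and 47.5 CPM. Its replicates 1 and 2 were the lowest 2 of all 36 libraries in Cdkn2a and among the lowest 3 in Cdkn2b, whereas replicate 3 lay within the range of the other lines. The female line of lot 12 was at 27.9, 18.4 and 18.5 CPM for Cdkn2a and 47.1, 31.2 and 79.9 CPM for Cdkn2b. Without replicate 3 of both lines, a choice made after seeing the data, both genes were called higher in the female line, Cdkn2a by a log2 fold change of 1.40 (adjusted p = 0.0264) and Cdkn2b by 1.39 (adjusted p = 0.00832). Without replicate 3 of the male line alone, Cdkn2a was called too (1.30, adjusted p = 0.0194), and its female-male difference then differed between lots (adjusted p = 0.00923). With all libraries and the replicate number as a block, Cdkn2b passed at 1.13 (adjusted p = 0.00280) and Cdkn2a did not, at 0.64 (adjusted p = 0.327).

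The neighbouring gene Mtap, which encodes a methionine salvage enzyme and is often lost together with CDKN2A in tumours, was lower in the same line. It was at 64, 53.4 and 96.9 CPM in the lot 12 male and 179, 188 and 149.7 CPM in the female line, where the other 8 lines ranged from 118 to 229.6 CPM on average. The ranges of the 2 lines were apart, with a log2 fold change of 1.27 ± 0.14 (SE, adjusted p = 1.27e-07). In lots 6 and 7 Mtap was instead lower in the female line, at -0.58 ± 0.14 (SE, adjusted p = 0.00173) and -0.55 ± 0.12 (SE, adjusted p = 0.0018). On the far side of Mtap, Klhl9 had 0.79 (adjusted p = 0.520) in lot 12, and on the other side of Cdkn2b the next named gene, Caap1, had -0.84 (adjusted p = 0.571). Copy number was not measured here.

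**Figure D5:**
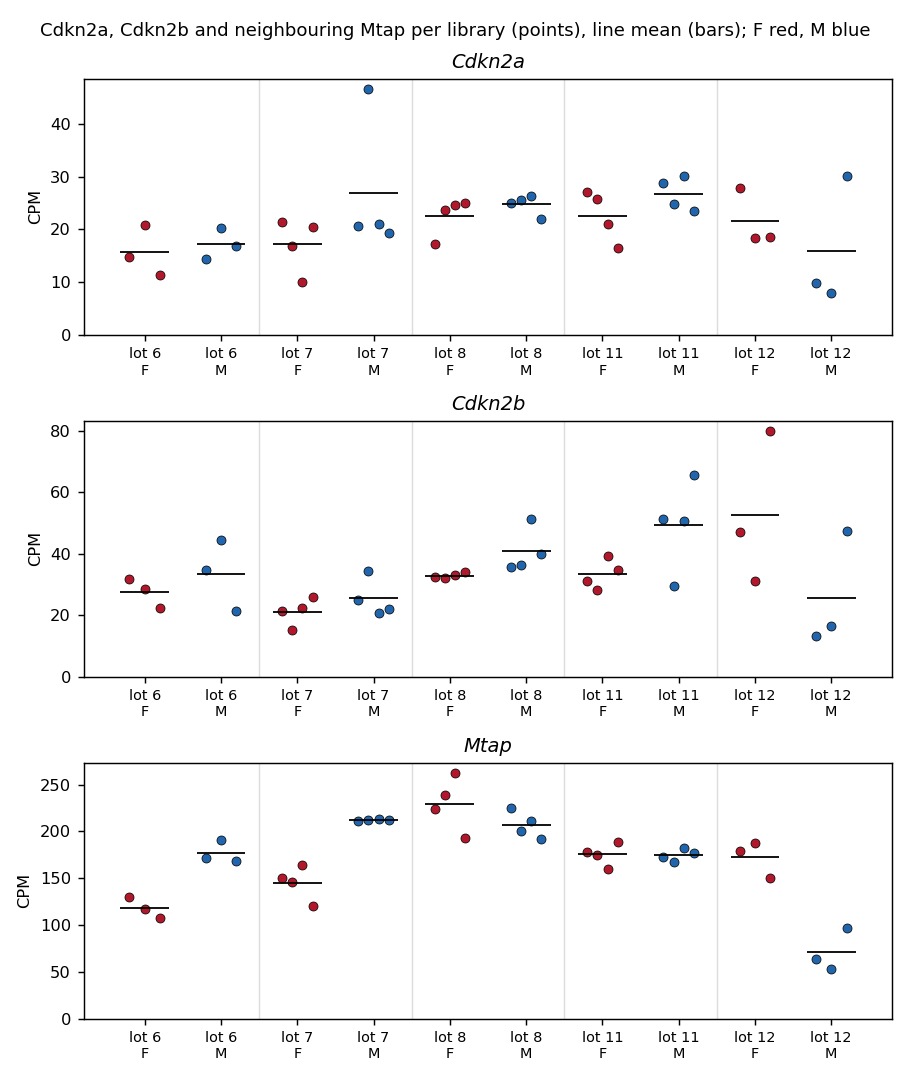
Cdkn2a, Cdkn2b and neighbouring Mtap in CPM for each library (points, female red, male blue) with the line mean (bar), by lot. In the lot 12 male line all 3 genes have 2 low libraries and a higher replicate 3, and its Mtap libraries are the lowest of all 36.

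Among the member inhibitors, the mean over the lines was 6.15 CPM for Cdkn2c and 15.6 CPM for Cdkn1b, against 21.1 CPM for Cdkn2a and 34.2 CPM for Cdkn2b. Cdkn2c, which encodes the Ink4 protein p18, was at 7.57, 13.4 and 14.3 CPM in the lot 6 female and 6.66, 3.18 and 4.33 CPM in the male line, with separate ranges and a log2 fold change of 1.31 ± 0.39 (SE, adjusted p = 0.00969). Without replicate 2 of the male line the adjusted p was 0.0678. Line means were 11.7, 10.9 and 9.03 CPM in the lot 6 female and both lot 7 lines, and 3.14 to 5.1 CPM in the other 7. No neighbours in this order were apart. The female mean was higher in 4 of 5 lots. The fourth Ink4 gene, Cdkn2d, is no member but showed the same direction in lot 6, at 100.03, 126 and 133 CPM in the female and 35.5, 18.6 and 21.5 CPM in the male line (2.25 ± 0.31 (SE, adjusted p = 5.49e-07)).

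Cdkn1b, the gene of p27, had line means of 11 CPM (lot 6 male) to 19.2 CPM (lot 12 male) and was called in no lot. Its log2 fold changes were 0.71 ± 0.33, 0.60 ± 0.28, -0.19 ± 0.29, -0.67 ± 0.28 and -0.17 ± 0.32 (SE) in lots 6, 7, 8, 11 and 12. The lot 6 libraries were apart, 15.3, 19.3 and 19.6 CPM in the female against 10.2, 10.3 and 12.5 CPM in the male line, but the adjusted p was 0.108. In lot 6 it was called on library totals, at 0.93 (adjusted p = 0.0350), and in the lot's libraries alone, at 0.71 (adjusted p = 0.0404). The difference between lots passed with an adjusted p of 0.0364, lost with the replicate block (0.0735), without replicate 4 of lots 7, 8 and 11 (0.0657), and in 10 of the 36 fits that left out 1 library, whose range was 0.0115 to 0.0859.

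Rb1, the target of the cyclin D kinases, was at the edge of detection, with 298 counts in all 36 libraries and 7 libraries at or under 3 counts. Line means ran from 0.457 ± 0.539 CPM (SD, n = 4) for the lot 8 male to 2.5 ± 1.54 CPM (SD, n = 4) for the lot 11 female, and no neighbours in the order were apart. Standard errors of the within-lot log2 fold changes were 0.81 to 1.00, so that only very large differences were detectable at this depth. Rb1 also shares exonic positions with Rcbtb2 and Lpar6 on the opposite strand, which had 9720 and 1543 counts. Over the 10 lines, Cdkn2a and Rb1 had a Pearson r of 0.18 (permutation p = 0.622, adjusted p = 0.622) and a Spearman rho of 0.20 (permutation p = 0.583, adjusted p = 0.583). Leaving out the lot 12 male and lot 6 female lines gave an r of 0.17. Cdkn2a and Cdkn2b had an r of 0.52 (permutation p = 0.128, adjusted p = 0.221), a rho of 0.36 (permutation p = 0.311, adjusted p = 0.415), and an r of 0.42 without the same 2 lines. Centred on the lot, r was 0.75 for Cdkn2a and Cdkn2b (exact test swapping the sexes within lots, p = 0.0625, adjusted p = 0.250). As 0.0625 is the smallest possible p, this test could not fall under 0.05.

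Genes known to act with the members were grouped into lists by their role. Of 15 tested G1 partners, 2 were called higher and 4 lower in the lot 6 female line (median log2 fold change -0.19, against 0.063 for all genes). The shares of all genes called there were 13.5% higher and 14% lower. The higher ones were Cdkn2d and Mnat1, a subunit of the kinase that activates Cdks, at 0.66 ± 0.16 (SE). The lower ones included Cdkn1a, the p53 target that encodes p21, at -1.66 ± 0.42 (SE, adjusted p = 0.0026), Skp2, which targets p27 for destruction, at -0.83 ± 0.27, and Cdk7 at -0.43 ± 0.15 (SE). In lot 7, where 10.8% of all genes were called, Cdkn1a was the only one of the 15. Its direction was the opposite, at 56 CPM in the female and 8.13 CPM in the male line (2.79 ± 0.40 (SE, adjusted p = 2.97e-06)). In lots 8, 11 and 12 none of the 15 was called, where 11.4, 4.33 and 3.8% of all genes were.

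Of 12 pocket protein and E2F genes, 2 were called in lot 6, where 27.6% of all genes were. These were E2f1 at 0.72 ± 0.27 and E2f6 at 0.86 ± 0.33, both higher in the female line. In lot 12, where 3.8% of all genes were called, 1 was, the repressor E2f7, lower at -1.13 ± 0.32 (SE, adjusted p = 0.0356). None was called in lots 7, 8 and 11. Of all genes, 27.6, 10.8, 11.4, 4.33 and 3.8% were called in lots 6, 7, 8, 11 and 12. Of 20 E2F target and S phase genes, the numbers called there were 2, 2, 1, 1 and 0, with medians of -0.14, -0.24, -0.087, 0.17 and -0.097. They were Mki67, a marker of cycling cells, at 1.20 ± 0.28 and Cdc6 at -0.85 ± 0.28 in lot 6, Gins2 at -0.63 ± 0.16 and Tyms at -0.40 ± 0.10 in lot 7, Tyms at -0.34 ± 0.10 in lot 8, and Rrm2 at 0.50 ± 0.14 in lot 11 (SE). The other 18 to 20 genes of the list were not called in each lot.

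In lot 6, 13.5% of all genes were called higher and 14% lower in the female line. Of 12 genes of the Arf and p53 arm, 0 were higher and 5 lower there (median -0.89, against 0.063 for all genes). They were Plk2, Perp, Ccng1, Trp53 and Mdm2, of which Perp, a p53 target in apoptosis and adhesion, had -2.97 ± 0.45 (SE, adjusted p = 2.98e-06) and Plk2 -1.67 ± 0.22 (SE, adjusted p = 1.35e-07). Perp was also lower in the female line of lot 11, at -2.51 ± 0.38, and higher in lot 8, at 3.82 ± 0.43 (SE). In lot 7, Trp53 was lower at -0.92 ± 0.12 and Plk2 at -0.73 ± 0.18, while Ccng1 was higher at 0.99 ± 0.26 (SE). In lot 12 none of the 12 was called, where 3.8% of all genes were.

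Of 14 tested Polycomb and other regulators of Cdkn2a, 1 was higher and 3 lower in lot 6. The shares of all genes there were 13.5% higher and 14% lower. Hmga2, an architectural factor that represses the Ink4 locus in stem cells, was lower at -2.61 ± 0.33 (SE, adjusted p = 7.20e-08), Tbx3 at -2.23 ± 0.54 and Eed at -0.54 ± 0.17, and Cbx8 was higher at 0.92 ± 0.34 (SE). Hmga2 was lower in the female line of lot 7 too, at -1.52 ± 0.27, Ets2 was lower in lot 8, at -0.93 ± 0.20, and Id1 was higher in lot 12, at 0.48 ± 0.13 (SE). With all libraries, none of these lots had a called difference in Cdkn2a, but in lot 12 it was called without replicate 3 of the male line, as given above. The part of these regulators in the Cdkn2a values was not tested.

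Of 10 tested mitogen inputs to the D-type cyclins, 3 were higher and 3 lower in lot 6. The shares of all genes there were 13.5% higher and 14% lower. Myc, the factor that binds E-boxes such as those printed for Cdk4, was lower in the lot 6 female line, at -0.59 ± 0.14 (SE, adjusted p = 0.00171), and was not called in the other lots, with -0.17 ± 0.13 in lot 7 and 0.037 ± 0.14 in lot 12, where Cdk4 was also lower. Jun was lower in lots 6 and 7, at -0.68 ± 0.18 and -0.58 ± 0.15, and Junb higher in lots 6, 7 and 8, at 0.53 ± 0.15, 0.45 ± 0.13 and 0.69 ± 0.14 (SE). In lot 6, Fosl1 was lower at -0.72 ± 0.22 and Tcf7l2 higher at 0.76 ± 0.26 (SE), and Fos averaged 8.10 CPM in the female line with 0 counts in the 3 male libraries. Ctnnb1, the gene of beta-catenin, was higher in the lot 8 female line, at 0.92 ± 0.25, and Fosl2 in the lot 11 female line, at 0.85 ± 0.19 (SE). Ctnnb1 was not called in lot 11, nor Fosl2 in lot 8. The part of these genes in the Ccnd1 and Cdk4 values was not tested.

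Near Ccnd1 on chromosome 7 (144929931 to 144939925, GRCm38), Ano1, which encodes a chloride channel, was lower in the lot 7 female line (log2 fold change -3.22, adjusted p = 4.45e-08). It was higher in the female lines of lots 8 (1.82, adjusted p = 5.49e-06) and 11 (1.50, adjusted p = 0.000285). These were the directions in which Ccnd1 was called. In lot 12 neither was called. In lot 6 Ano1 was under the floor in the female line and at 22.3 ± 5.38 CPM (SD, n = 3) in the male line, whereas Ccnd1 was not called. LTO1, which lies between Ano1 and Ccnd1, overlaps Ccnd1 on the opposite strand and had 2237 counts in all against 62716, was called in no lot. Mrgprf, on the other side of Ccnd1, was called in no lot either, with line means of 0 to 2.34 CPM. Ccnd2 lies on chromosome 6 (127125162 to 127152193), where 3 of its 4 nearest tested neighbours, Tigar, D6Wsu163e and Parp11, were called in no lot. The fourth, Tspan11, was called lower in the lot 11 female line (log2 fold change -3.47, adjusted p = 0.0148), the direction of Ccnd2 there, at 0.667 ± 0.809 CPM against 7.41 ± 4.24 CPM (SD, n = 4). In lot 12 it had 91 counts over the 3 female and 2 over the 3 male libraries (adjusted p = 0.0150). Near Cdkn2c, the genes Eps15, Rnf11 and Faf1 were called in no lot. Beyond Faf1, Dmrta2 had 231 counts over the 3 female and 1 over the 3 male libraries of lot 6 (adjusted p = 5.03e-07), where Cdkn2c was called higher in the female line. Dmrta2 was called lower in the lot 11 female line (-3.59, adjusted p = 0.00218), where Cdkn2c was not called.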

How the data were processed

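RNA of 10 lines was profiled by BRB-seq in 36 libraries. The authors deposited 1 table of unnormalised counts by mouse Ensembl gene, per the labels. Tools listed in the submitters' processing notes are Subread 2.0.2, STAR 2.7.6a and cutadapt 2.10, with GRCm38 as the genome. The strand setting and the collapsing of molecular identifiers are not given in the sources used here, so floors cover counting error only.

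Identifiers were matched to GENCODE M21. Of 46078 genes 45229 matched, and 849 did not. Library totals were 4358098 to 7562901 (median 6061120). Of 48 pairs of libraries of the same line, 0 were identical. Counts were fitted with edgeR 4.0.16 (filterByExpr, TMM, quasi-likelihood F-tests, adjusted p under 0.05) in R 4.3.3, with 1 coefficient per line for tests among lines, within lots and between lots. The comparison across lots used counts summed per line, with lot and sex as terms. Alternatives were limma 3.58.1 (voom) and DESeq2 1.42.0, other scalings and filters, a replicate block, fits of single lots, and leaving out libraries or lots. Correlations used log2 CPM (prior count 2) and 100000 permutations, except the lot-centred one, which was exact. Methods were tested on simulated data.

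Libraries of lot 12 with the same number had residual correlations between the sexes of 0.392 to 0.529 in 3 of 3 pairs, all over 0.1, which is taken as pairing. In lots 6, 7, 8 and 11, correlations were -0.12 to 0.30, with 1 of 3, 3 of 4, 1 of 4 and 3 of 4 pairs over 0.1.

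The members, the lists and the rule for named genes were chosen with earlier results of these data known. The rule named all members, up to 3 genes per direction and list by smallest p, the nearest 2 tested protein-coding genes on either side of called members, and the 3 genes most like members that varied at least 4-fold between lines, and the text gives part of what it took. For Rb1, near the floor, the last are Dtl, Sox11 and Inip (r = 0.88, 0.87 and 0.86).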

Additional observations from a re-analysis of the deposited data

Results flagged for a closer look

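Groups tested for an outlying value were the 4 libraries of a line in lots 7, 8 and 11 and the 5 line means of a sex, 80 over the 10 genes. In 6 of them (7.5%, where chance flags about 1 in 20), 1 library lay far from the other 3. Ccnd2 was at 356 CPM in replicate 4 of the lot 11 male line, against 286 to 294 CPM in the others. Ccnd3 was at 16.7 CPM in replicate 1 of the lot 8 female line, against 11.4 to 11.8 CPM. Cdk6 was at 107 CPM in replicate 1 of the lot 11 male line, against 38.3 to 42.4 CPM, and the same library had the highest Cdkn1b of all 36, 33.7 CPM. Cdkn2a was at 46.7 CPM in replicate 2 of the lot 7 male line, against 19.2 to 21.1 CPM, and at 17.2 CPM in replicate 1 of the lot 8 female line, against 23.8 to 25 CPM. Rb1 was at 1.26 CPM in replicate 1 of the lot 8 male line, against 0.178 to 0.192 CPM, which is 1 count in each of the others.

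The female-male difference was not the same in all lots for 6 members, by edgeR's test of that difference, which 29.9% of all genes passed. The adjusted p was 6.14e-08 for Ccnd1, 8.86e-07 for Ccnd2, 1.93e-05 for Cdk4, 0.0113 for Cdk6, 0.0364 for Cdkn1b and 0.0370 for Cdkn2b. The passes of Cdkn1b and Cdkn2b were lost under some alternatives, given above with each gene. Ccnd1 and Ccnd2 were called in both directions among the lots. Cdk4 and Cdk6 were called in 1 direction only, lower in the female line.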

How the results depend on the processing

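Within lots, the calls of Ccnd1 and Ccnd2 in lots 7 and 8, of Ccnd2 and Cdk6 in lot 11, and of Cdk4 and Cdk6 in lot 6 and Cdk4 in lot 7 kept their direction and their side of the threshold under every alternative run, including each left-out library. On library totals without TMM scaling, the median log2 fold change of all genes in lot 6 moved from 0.063 to 0.29. The share of called genes that were higher in the female line moved from 49.0 to 68.9% in lot 6, from 50.0 to 60.2% in lot 7, from 56.2 to 68.6% in lot 8 and from 45.8 to 57.2% in lot 12. Across lots, the number of genes called was 0 with edgeR, 3 without a filter, 60 with DESeq2, 491 with limma voom, 1 without the lot term and 1 without replicate 4 of lots 7, 8 and 11, and 1 member was called by DESeq2 and 2 by limma voom. Values near 0 changed sign across lots: Ccnd2 to 0.073 on library totals, 0.015 with limma voom, 0.062 without the lot term and 0.0058 without replicate 3 of lot 12, Cdkn2a to 0.028 without replicate 3 of lot 12, and Rb1 to -0.047 without replicate 4 of lots 7, 8 and 11. Leaving out each lot in turn gave -0.14 to 0.29 for Ccnd1, -0.20 to 0.18 for Ccnd2, -0.35 to 0.017 for Cdkn2b, -0.11 to 0.23 for Cdkn1b, -0.31 to 0.32 for Rb1 and -6.14 to 7.26 percentage points for the Ccnd1 share, which was 0.0996 without replicate 4 of lots 7, 8 and 11. The correlation of Cdkn2a with Rb1 was -0.088 after centring on the lot. Without replicate 4 of those lots, 878 genes were called in lot 7, against 1319. In lot 12, 463 genes were called, against 106 in its libraries alone, 667 with the replicate block and 228 to 731 when 1 library was left out. The number of members called there was 1, against 4 without a filter, 3 with the block, 2 with DESeq2, 0 in its libraries alone, 3 without replicate 3 of both lines and 0 to 4 when 1 library was left out. In lot 6 it was 4, against 5 on library totals, 5 in its libraries alone, 3 without a filter and 2 to 4 when 1 library was left out. Of the 36 within-lot values of members not called, 6 were called under some alternative, each given with its value beside the gene, and 12 changed sign, to values of -0.026 to 0.43 in 25 fits, none of them called. The replicate block changed no other member call than those of Ccnd2, Cdkn2b and Cdkn1b given with their values. The causes of these changes were not tested. Depth limits Rb1 most, with 298 counts in all.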
